A study of Mus musculus with 6 samples.

Results

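The genes described here are the initiation and elongation factors of cytoplasmic protein synthesis, as measured by bulk RNA sequencing of mouse duodenal villus epithelium. They were chosen by name, as the protein-coding genes whose mm9 annotation symbol starts with Eif or Eef, leaving out the symbols that start with Eif2ak and Eif2s3. The rule found 62 genes in the annotation, and 59 of them had a row among the 20409 rows of the count table. Eef1a2, Eif4e1b and a second identifier of Eef2k were not analysed here. All 59 passed the filter on low counts and were tested together with the other genes, 13346 in all. In this older annotation, 4 of the 59 symbols (Eif2c1 to Eif2c4) belong to the Argonaute genes, which act with small RNAs and are not translation factors, so they are given separately and 55 genes remain without them.

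The villi came from 3 double mutant and 3 wild-type mice, with 1 library per mouse, 2 females and 1 male in each group, and the labels call the 3 libraries of a group replicates. The double mutant genotype, Smad4 knockout with beta-catenin GOF (gain of function), was made with floxed alleles, Smad4 fl/fl and Ctnnb exon3 fl/wt, on a C57BL6-enriched background. They were recombined by Villin-CreERT2, a tamoxifen-inducible recombinase active throughout the intestinal epithelium, after 4 daily intraperitoneal injections of tamoxifen at 0.05 g/kg, and the villi were taken at 7 days. Wild-type mice were littermates that received no tamoxifen, so the injections and the mutation cannot be told apart in this comparison. The epithelium was lifted off the duodenum with EDTA, villi were kept on a filter, and polyadenylated RNA was sequenced.

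Translation begins when eIF2 brings the initiator tRNA to the small ribosomal subunit, eIF3 and the eIF4 factors load that subunit onto a capped mRNA, and eIF1, eIF1A and eIF5 govern the choice of the start codon. Elongation then relies on eEF1A, which delivers aminoacyl-tRNAs and is recharged by the eEF1B subunits, and on eEF2, which moves the ribosome along the mRNA. Cells that grow and divide are known to need much of this machinery, and several of its mRNAs carry a pyrimidine tract at the 5' end, the TOP motif, through which mTORC1 controls their translation.

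Library totals ran from 19678507 to 26337318 counts, of which 146563 to 227530 fell on the 59 genes. Levels are given as CPM, counts relative to the library total, scaled by edgeR's TMM factors, and a count of 3 in a library corresponded to 0.114 to 0.153 CPM before that scaling. This floor covers counting error only. Of the 59 genes, 54 had at least 100 counts in every library, and the lowest count of any of them in any library was 5, for Eif5a2. Smad4, the gene inactivated in the mutant, had 148 ± 30.3 CPM in the wild-type mice against 31.7 ± 5.40 CPM in the double mutants (mean ± SD, n = 3). Wild-type mouse 1 stood apart: goblet cell markers took 0.0114% of its counts against 1.06 to 1.08% in the other wild-type mice, and Paneth cell markers 0.00219% against 0.0905 and 0.152%. In the double mutant mice goblet markers took 0.494 to 0.548% and Paneth markers 0.0175 to 0.0273%, between wild-type mouse 1 and the other wild-type mice, with 1 of 8 goblet markers higher and 1 of 7 Paneth markers lower. Without this library, 36 of the 59 genes were higher (20.2% of all genes tested without it) and 1 was lower (17.1%), with a median log2 fold change of 0.52. Markers of dividing cells took 0.00689 to 0.00997% of the counts in wild-type and 0.0239 to 0.0280% in double mutant villi, and 9 of the 10 were higher. Stem cell markers took 0.00742 to 0.0183% and 0.0318 to 0.0413%, with 4 of 8 higher, while enterocyte markers took 5.53 to 6.11% and 4.09 to 4.19%, with 8 of 12 lower and 1 higher. Tuft cell markers took 0.0128 to 0.0187% and 0.00157 to 0.00183%, with 7 of 7 tested lower, and enteroendocrine markers 0.0190 to 0.0284% and 0.0104 to 0.0114%, with 6 of 8 lower and 1 higher. Immune markers ranged from 0.0648 to 0.272% and from 0.122 to 0.337%, with 2 of 8 tested lower. The part of these cell types in the results that follow was not tested. Mesenchymal and endothelial markers took at most 0.000813% of any library.

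Genes of translation initiation and elongation were mostly higher in double mutant villi. With edgeR's quasi-likelihood test and an adjusted p under 0.05 over all tested genes, 36 of the 59 (61.0%) were higher, where 19.7% of all tested genes were, and 2 (3.39%), Eif4h and Eif6, were lower, where 17% of all tested genes were. Together these were 38 of 59, where 36.8% of all tested genes were called in either direction. The other 21 did not pass the test, and only 1 of those 21, Eif4e2, had an unadjusted p under 0.05. The median log2 fold change, double mutant over wild-type, was 0.52 over the 59 genes and 0.02 over all tested genes. In 36 genes every double mutant library lay above every wild-type library, an order that 28.1% of all tested genes showed, and in 5 every one lay below (24.2% of all tested genes). Most changes were under a doubling: 6 of the genes that rose had a log2 fold change of at least 1 (10.9% of all tested genes), and of these only Eif2b3 reached 2 (3.04% of all tested genes). Neither gene that fell reached -1 (6.23% of all tested genes) or -2 (2.26%). Without the Argonaute genes, 36 of 55 were higher, 2 were lower and the median was 0.55. Of the 36, 30 passed the test in each of the 6 fits that left out 1 mouse.

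**Figure D1:**
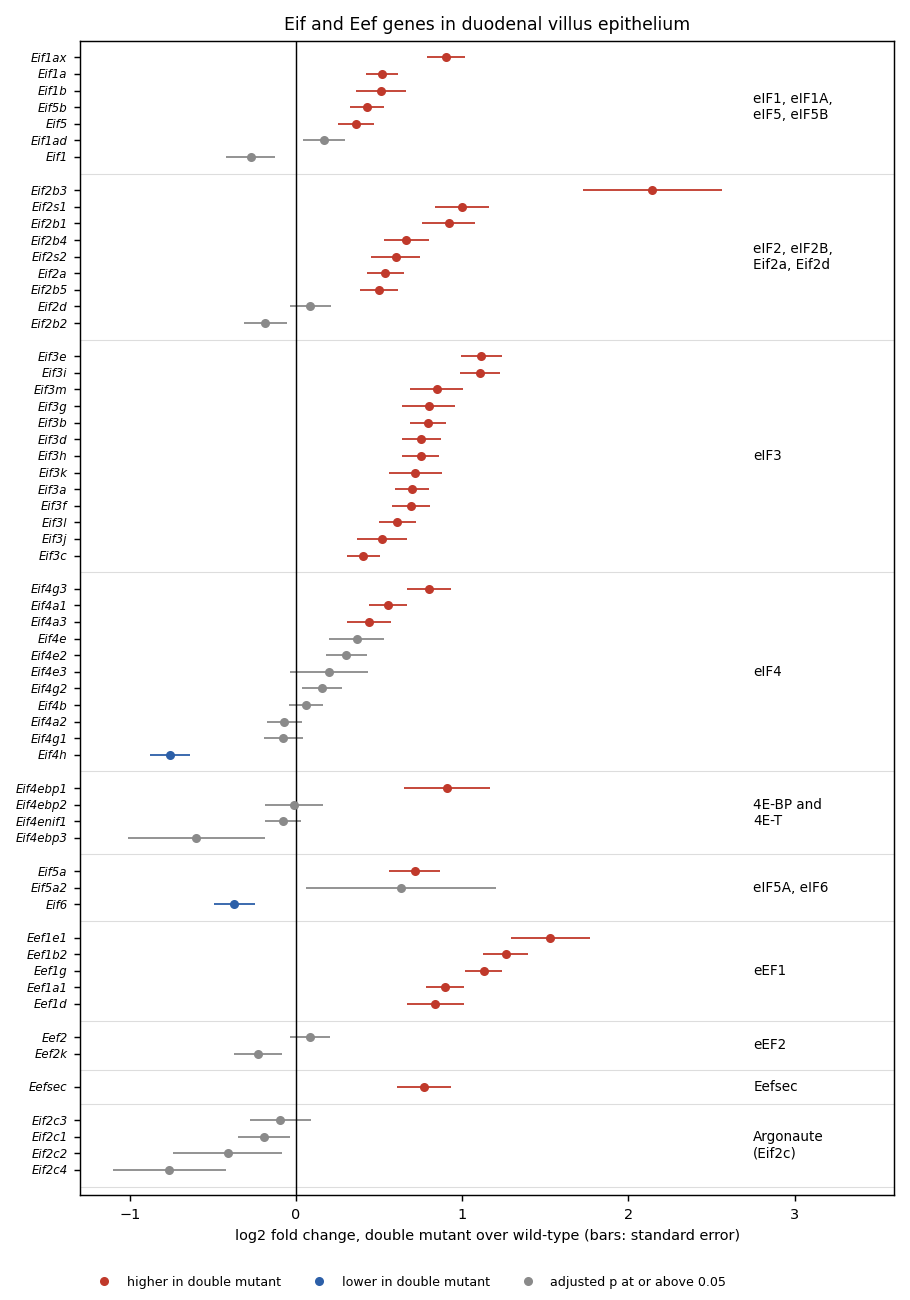
Log2 fold change (horizontal axis, double mutant over wild-type) of each of the 59 genes, grouped by role. Points are edgeR estimates, bars are standard errors and colour gives the call; all 13 eIF3 and all 5 eEF1 genes lie to the right of 0 as called, while the eIF4 group is spread from -0.76 to 0.80.

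Together the 59 genes took 0.764, 0.743 and 0.735% of the counts in the wild-type mice and 1.12% in each of the 3 double mutant mice. The group means were 0.748% ± 0.0152 and 1.12% ± 0.00131 (SD, n = 3), a ratio of 1.495. Eef1a1 and Eef2 alone accounted for much of both totals. Without them the shares were 0.457% ± 0.0101 and 0.627% ± 0.0157, and the ratio fell from 1.495 to 1.37. The 8 Eef genes took 0.316% ± 0.0122 and 0.550% ± 0.0159, and the 51 Eif genes 0.432% ± 0.00983 and 0.567% ± 0.0162. In bulk epithelium, fewer cells of a type and less RNA per cell cannot be told apart, and shares do not give the RNA content of a cell.

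All 5 genes of the eEF1 group were higher in double mutant villi (19.7% of all tested genes), with a median log2 fold change of 1.13. Eef1a1 (chr9:78326256-78336958, minus strand, mm9) encodes the factor that carries aminoacyl-tRNAs to the ribosome. It had 1716, 1617 and 1489 CPM in the wild-type mice and 2924, 2994 and 3052 CPM in the double mutant mice, a 1.86-fold rise (log2 0.90 ± 0.11 SE, adjusted p = 0.000743). Its lowest double mutant library lay well above its highest wild-type library, and per kilobase of annotated exons it had the highest level of the 59 genes in both groups. Eef1b2, Eef1g and Eef1d encode subunits of eEF1B, which reloads eEF1A with GTP. Eef1b2 went from 75.1, 72.8 and 86.8 CPM to 159, 208 and 195 CPM (log2 1.26 ± 0.13, adjusted p = 0.000359). Eef1g went from 126, 121 and 125 CPM to 247, 299 and 268 CPM (log2 1.13 ± 0.11), with the smallest adjusted p of the 59 genes (0.000258). Eef1d rose less, from 35.0 ± 1.56 to 62.6 ± 14.7 CPM (log2 0.84 ± 0.17, adjusted p = 0.00597), with 48.1, 77.5 and 62.1 CPM in the 3 double mutant mice. Eef1e1, which encodes a small protein of the multi-tRNA synthetase complex that is named for its likeness to eEF1 subunits, had 5.21, 3.70 and 3.94 CPM in the wild-type mice against 12.1, 15.4 and 9.68 CPM in the double mutants (log2 1.53 ± 0.24, adjusted p = 0.00172). This was the largest change in the group, and per kilobase Eef1e1 had the lowest level of the group in wild-type villi (4.15 CPM per kb) but not in double mutant villi (12.0 CPM per kb, against 10.6 for Eef1d).

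Eef2, which encodes the translocation factor, did not pass the test. It had 1572, 1579 and 1380 CPM in the wild-type mice against 1553, 1523 and 1723 CPM in the double mutants, and the groups overlapped (log2 0.08 ± 0.12, adjusted p = 0.616). Eef2k, the kinase that inactivates eEF2, had 17.6 ± 2.34 and 15 ± 0.113 CPM (log2 -0.23 ± 0.15, adjusted p = 0.243). Neither had an unadjusted p under 0.05. Eefsec, the elongation factor for selenocysteine, rose from 7.12, 9.19 and 9.30 CPM to 14.1, 14.8 and 14.7 CPM (log2 0.77 ± 0.16, adjusted p = 0.00738). Double mutant levels of Eefsec were almost equal among the 3 mice.

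Of the 59 genes, 9 belong to mRNAs known in the field to carry a TOP motif, and that list was put together with earlier results of these data known. Among these, 7 were higher (Eef1a1, Eef1b2, Eef1d, Eef1g, Eif3e, Eif3f and Eif3h), where 19.7% of all tested genes were. None was lower, where 17% of all tested genes were, and Eef2 and Eif4b did not pass the test. The median log2 fold change of the 9 was 0.84. The stretches around the annotated transcript starts of some are shown as examples of what stands at the annotated start, and not every gene of the list is shown or accounted for. Each is 30 bases of RefSeq promoter sequence (GRCm38.p6), read 5' to 3' on the gene's strand, and the capitals mark the longest run of a C followed by at least 5 bases that are each C or T, among runs that begin within 20 bases of the start on the gene's strand. The stretches of Eef1a1 (chr9:78481705-78481734, minus strand) and Eif3f (chr7:108934405-108934434, plus strand) belong to genes that rose, and so does that of Eif3l (chr15:79075213-79075242, plus strand), which is not on the TOP list. That of Eif4b (chr15:102073763-102073792, plus strand) belongs to a gene that did not pass the test. Eef1b2, on the TOP list and higher, had no such run in its window, and Eef1d, Eef1g, Eif3e and Eif3h had no window to search.
Eef1a1: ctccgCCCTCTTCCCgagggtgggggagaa
Eif3f: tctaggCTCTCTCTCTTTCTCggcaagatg
Eif3l: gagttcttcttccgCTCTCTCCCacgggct
Eif4b: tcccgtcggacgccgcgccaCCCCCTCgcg

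RefSeq promoter windows were matched for 46 of the 59 genes. Such a pyrimidine run was found in at least 1 window of 15 of the 46 (32.6%) and of 34.2% of all 27025 genes with a window, tested here or not, so it was about as frequent among the translation factors as in that wider set. Among genes that rose, 25.0% had one, and among the others 44.4%. Matches are a description of letters and not of a measured start site, since the data hold no 5' ends.

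All 13 eIF3 subunits measured were higher in double mutant villi (19.7% of all tested genes), by 0.40 to 1.11 on the log2 scale, with a median of 0.75 and adjusted p-values from 0.000379 to 0.0262. The complex is the largest of the initiation factors and holds the small subunit, the mRNA and the other factors together. In each of the 13 genes all double mutant libraries lay above all wild-type libraries, an order that 28.1% of all tested genes showed. With replicate number added to the model, only Eif3c of the 13 lost its call (adjusted p = 0.0508). Eif3e had 32.1, 27.9 and 34.5 CPM in the wild-type mice and 72.2, 68.3 and 64.3 CPM in the double mutant mice, a 2.17-fold rise (log2 1.11 ± 0.12, adjusted p = 0.000393). Eif3i, which encodes a WD-repeat subunit, went from 30.7, 26.2 and 31.3 CPM to 62.6, 67.7 and 59.9 CPM (log2 1.11 ± 0.12, adjusted p = 0.000379). These were the largest rises of the complex. Eif3c, a core subunit, showed the smallest, from 119, 121 and 121 CPM to 170, 154 and 154 CPM (log2 0.40 ± 0.10, adjusted p = 0.0131), with wild-type mice that were almost equal. Between these lay Eif3a (log2 0.70), Eif3f (0.69), Eif3h (0.75), Eif3k (0.72), Eif3l (0.61) and Eif3m (0.85), which form the structural core of the complex with Eif3c and Eif3e, and the more peripheral subunits Eif3b (0.79), Eif3d (0.75) and Eif3g (0.80).

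Eif3h had the highest level of the complex per kilobase of annotated exons, 52.9 CPM per kb in wild-type and 89.0 CPM per kb in double mutant villi. Eif3j, the loosely bound subunit, had the lowest, 3.33 and 4.77 CPM per kb. Counts of Eif3j went from 20.1, 21.4 and 16.8 CPM to 31.1, 28.2 and 24.1 CPM (log2 0.52 ± 0.15, adjusted p = 0.0262). Its adjusted p rose to 0.0922 without wild-type mouse 3, to 0.0731 without double mutant mouse 1 and to 0.0721 without double mutant mouse 2. Eif3j has a near-identical copy annotated as Gm9781, since renamed Eif3j2, which went the other way, from 6.37, 1.47 and 2.73 CPM to 0.610, 0.742 and 0.665 CPM (log2 -2.39 ± 0.55, adjusted p = 0.00996). The copy took 24.1, 6.43 and 14.0% of the counts of the pair in the wild-type mice and 1.93, 2.56 and 2.68% in the double mutant mice. How the counting divided reads between them is not given in the sources used here, so both values are uncertain. The exons of Eif3j overlapped those of Spg11 on the opposite strand over 19% of their length, and those of Eif3d overlapped Gm17638 on the opposite strand over 32.7%, and reads of such pairs cannot be told apart without strand.

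**Figure D2:**
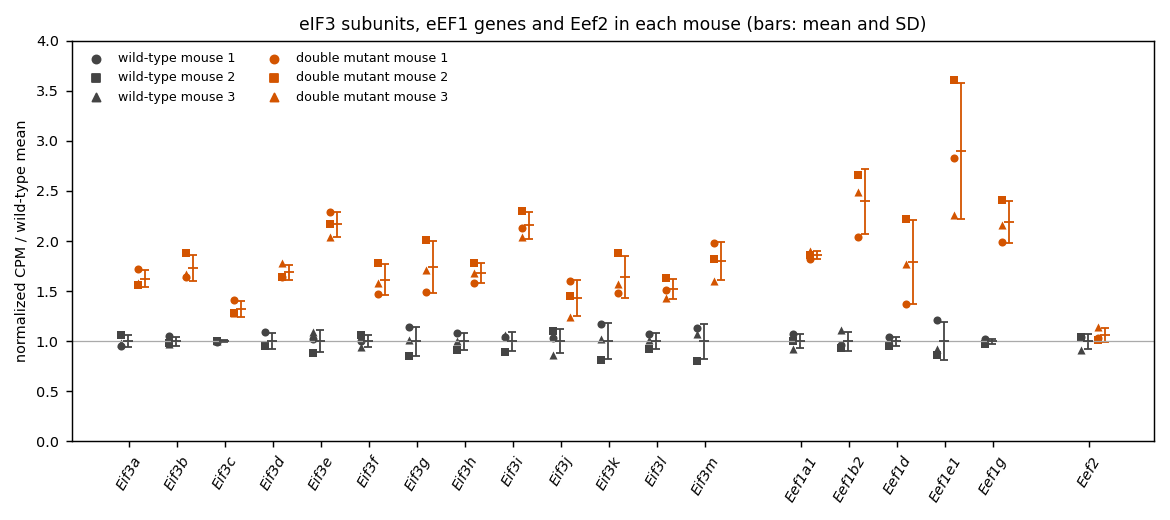
CPM of each mouse divided by the wild-type mean of the gene (vertical axis) for the 13 eIF3 subunits, the 5 eEF1 genes and Eef2. Symbols are single mice, horizontal ticks are group means and bars are SD (n = 3); wild-type and double mutant mice are apart in all genes drawn except Eef2.

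Genes for eIF2, its exchange factor eIF2B and alternative carriers of the initiator tRNA were higher in 7 of 9 cases (19.7% of all tested genes). None was lower (17%), and the median log2 fold change was 0.60. Eif2s1, the alpha subunit whose phosphorylation by stress kinases slows initiation, had 29.9, 21.4 and 20.6 CPM in the wild-type mice against 47.1, 52.3 and 44.5 CPM in the double mutants (log2 1.00 ± 0.16, adjusted p = 0.00227). Eif2s2, the beta subunit, rose from 54.5 ± 9.20 to 82.5 ± 9.54 CPM (log2 0.60 ± 0.15, adjusted p = 0.0145). Its adjusted p was 0.0545 without wild-type mouse 2 and 0.0550 without double mutant mouse 2, and the near-identical Gm9892 took 9.74 to 12.8% of the counts of the pair across the 6 libraries. Eif2a and Eif2d can bring initiator tRNA to ribosomes without eIF2, and Eif2a was higher (log2 0.54 ± 0.11, adjusted p = 0.00648) while Eif2d had 24.7 ± 2.58 and 26.2 ± 0.814 CPM (log2 0.09 ± 0.12, adjusted p = 0.623).

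Of the 5 eIF2B subunits, 4 were higher (19.7% of all tested genes), with a median log2 fold change of 0.66 over the 5. Eif2b3, the gamma subunit, showed the largest change of all 59 genes at a low level, from 0.958, 0.381 and 0.910 CPM to 2.39, 3.71 and 3.99 CPM (log2 2.14 ± 0.42, adjusted p = 0.00491). Its lowest library held 7 counts, and the 4.42-fold rise has the widest error among the genes that rose. The regulatory alpha subunit Eif2b1 rose from 12.3 ± 1.24 to 23.2 ± 3.48 CPM (log2 0.92 ± 0.16), the delta subunit Eif2b4 by 0.66 ± 0.14 and the catalytic epsilon subunit Eif2b5 by 0.50 ± 0.11. Eif2b2, the beta subunit and the one with the group's highest level per kilobase in wild-type villi (13.1 CPM per kb, against 11.5 in double mutant villi), had 25.2, 25.1 and 23.7 CPM in the wild-type mice against 19.7, 24.2 and 21.4 CPM in the double mutants, with overlapping groups (log2 -0.18 ± 0.13, adjusted p = 0.289). With library size alone as the scaling, its value was 0.01.

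Among the 7 genes of start codon selection and subunit joining, 5 were higher (19.7% of all tested genes), none was lower (17%) and the median log2 fold change was 0.43. Eif1ax, an X-linked gene for eIF1A, went from 21.5, 19.6 and 19.5 CPM to 36.6, 39.1 and 37.7 CPM (log2 0.90 ± 0.11, adjusted p = 0.000669), the largest rise of the group. Its autosomal relative Eif1a rose by 0.52 ± 0.10 (adjusted p = 0.00442) and Eif5b, the factor that joins the subunits, by 0.43 ± 0.10 (adjusted p = 0.0113). Eif5, the GTPase-activating protein of eIF2, had 179, 184 and 159 CPM in the wild-type mice against 238, 216 and 215 CPM in the double mutants (log2 0.36 ± 0.11, adjusted p = 0.0301). That call held only without wild-type mouse 1: the adjusted p was 0.0561 and 0.110 without wild-type mouse 2 or 3, and 0.0645, 0.0583 and 0.0681 without double mutant mouse 1, 2 or 3. Eif1, whose protein keeps the scanning ribosome open and which had the highest level of the group per kilobase (119 and 98.8 CPM per kb), had 292, 204 and 255 CPM and 194, 230 and 198 CPM (log2 -0.27 ± 0.15, adjusted p = 0.182). Eif1b, a close relative of Eif1, went from 9.66, 9.74 and 9.20 CPM to 13.2, 14.8 and 12.8 CPM (log2 0.51 ± 0.15, adjusted p = 0.0264). Its adjusted p was 0.0679 and 0.0826 without wild-type mouse 2 or 3, and 0.0970 and 0.0562 without double mutant mouse 2 or 3. Eif1ad, named for its eIF1A domain, had 81.8 ± 10.0 and 91.9 ± 7.69 CPM (log2 0.17 ± 0.13, adjusted p = 0.328).

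The eIF4 genes, which encode the cap-binding complex and its helicase helpers, did not move together. Of the 11 genes, 3 were higher (19.7% of all tested genes), 1 was lower (17%) and 7 did not pass the test, with a median log2 fold change of 0.20. Both counts are near those shares. Eif4g3, a scaffold of the eIF4G family, had 51.7, 61.1 and 53.5 CPM in the wild-type mice against 94.0, 110 and 84.9 CPM in the double mutants (log2 0.80 ± 0.13, adjusted p = 0.00235). Eif4a1, a helicase that unwinds mRNA leaders, went from 206, 174 and 205 CPM to 282, 307 and 269 CPM (log2 0.55 ± 0.11, adjusted p = 0.00657). A near-identical copy, Eif4a-ps4, took 12.7 to 16.5% of the counts of the pair in the 6 libraries. Eif4a3, the helicase of the exon junction complex, rose from 41.6 ± 4.91 to 56.3 ± 5.79 CPM (log2 0.44 ± 0.13, adjusted p = 0.0318). Its adjusted p was 0.108 and 0.0910 without wild-type mouse 2 or 3, and 0.109 and 0.0680 without double mutant mouse 2 or 3.

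Eif4h, which stimulates the eIF4A helicase, was the clearest fall among the 59 genes. It lies at chr5:135095747-135115218 on the minus strand (mm9) and had 542, 437 and 476 CPM in the wild-type mice against 269, 281 and 309 CPM in the double mutant mice (log2 -0.76 ± 0.12, adjusted p = 0.00202). The highest double mutant library lay below the lowest wild-type library, it passed the test whichever of the 6 mice was left out, and with library size alone the log2 fold change was -0.57 (adjusted p = 0.00555). Per kilobase, Eif4h had the third highest level of the 59 genes in wild-type villi (199.7 CPM per kb) and came just after Eif5a in double mutant villi (118 CPM per kb). Eif4b, which shares its helicase-stimulating role, had 227, 222 and 204 CPM and 237, 213 and 231 CPM (log2 0.06 ± 0.10, adjusted p = 0.686).

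The cap-binding protein itself, Eif4e, had 41.2, 32.4 and 34.5 CPM in the wild-type mice against 55.7, 46.2 and 37.2 CPM in the double mutants, and the groups overlapped (log2 0.36 ± 0.17, adjusted p = 0.124). Eif4e2, a cap-binding relative that represses translation, had 73.6 ± 6.26 and 90.8 ± 9.70 CPM (log2 0.30 ± 0.12, adjusted p = 0.0850). It passed the test without double mutant mouse 1 (adjusted p = 0.0389). Eif4e3 had 14.4 CPM in wild-type mouse 1 and 26.5 to 28.1 CPM in the other 5 mice (log2 0.20 ± 0.23, adjusted p = 0.539), and its log2 fold change without that mouse was -0.05. The scaffold Eif4g1 (470 ± 45.8 and 446 ± 26.2 CPM), the eIF4E-independent scaffold Eif4g2 (487 ± 26.4 and 544 ± 65.6 CPM) and the helicase Eif4a2 (264 ± 4.03 and 251 ± 20.8 CPM) did not pass the test, with adjusted p-values of 0.639, 0.343 and 0.624. With library size alone as the scaling, Eif4g1 was at 0.12 and Eif4a2 at 0.12 on the log2 scale, the opposite sign to the -0.08 and -0.07 of the TMM scaling.

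Of the 4 inhibitors of eIF4E, 1 was higher (19.7% of all tested genes) and none was lower (17%). Eif4ebp1, a target of mTORC1 that blocks eIF4E when it is not phosphorylated, had 8.83, 11.6 and 9.40 CPM in the wild-type mice against 11.6, 22.5 and 21.8 CPM in the double mutants (log2 0.91 ± 0.26, adjusted p = 0.0245). Double mutant mouse 1 stayed at the top of the wild-type range while the other double mutant mice were well above it. The adjusted p was 0.00419 without double mutant mouse 1, 0.0747 without wild-type mouse 3, and 0.0928 and 0.0870 without double mutant mouse 2 or 3. Eif4ebp2 had 45.3, 49.0 and 46.6 CPM and 60.4, 38.7 and 40.6 CPM (log2 -0.01 ± 0.17, adjusted p = 0.964), with double mutant mouse 1 the highest of all. Eif4ebp3 had only 1.16 ± 0.129 and 0.766 ± 0.257 CPM (log2 -0.60 ± 0.41, adjusted p = 0.287), and 67.3% of its exon length lies within the exons of Ankhd1 on the same strand. Eif4enif1, which moves eIF4E into the nucleus, had 37.6 ± 2.20 and 35.6 ± 0.391 CPM (log2 -0.08 ± 0.11, adjusted p = 0.596).

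eIF5A and eIF6 went in opposite directions. Eif5a, whose protein carries the modified residue hypusine and helps ribosomes through difficult peptide bonds, had 214, 177 and 193 CPM in the wild-type mice against 263, 384 and 311 CPM in the double mutants (log2 0.71 ± 0.15, adjusted p = 0.00770). Its relative Eif5a2 was near the limit of detection, with 0.472 ± 0.346 and 0.721 ± 0.142 CPM, and no difference was detectable at this depth (log2 0.63 ± 0.57, adjusted p = 0.421). Eif6, which keeps the large ribosomal subunit from joining too early, had 306, 249 and 296 CPM and 195, 231 and 232 CPM (log2 -0.37 ± 0.13, adjusted p = 0.0475). The groups of Eif6 did not overlap, but the call held only without wild-type mouse 2 (adjusted p = 0.0389). The adjusted p was 0.0961 and 0.124 without wild-type mouse 1 or 3, 0.134, 0.0844 and 0.0899 without double mutant mouse 1, 2 or 3, and 0.284 with library size alone.

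Ratios between related genes within a library do not depend on how libraries are scaled, and 11 of them were compared. With 3 mice against 3 the exact two-sided permutation test cannot go below p = 0.1, or an adjusted value of 0.183 over the 11 ratios here, so no ratio could pass the threshold. Groups did not overlap in 6 of the 11, and among single genes 28.1% lay wholly above and 24.2% wholly below, so 6 of 11 is near the share of all tested genes. The log2 ratio of Eif4a2 to Eif4a1 was 0.37, 0.61 and 0.34 in the wild-type mice and -0.05, -0.41 and -0.11 in the double mutant mice. Eif4g3 over Eif4g1 went from -3.08 ± 0.09 to -2.22 ± 0.25, and Eif4g2 over Eif4g1 from 0.06 ± 0.07 to 0.28 ± 0.12. Eif1b over Eif1 went from -4.91, -4.39 and -4.79 to -3.87, -3.96 and -3.95. Eif4ebp3 over Eif4ebp1 differed by -1.499 between the group means (-1.481 with 1 count added in place of 0.5) on counts of Eif4ebp3 as low as 10, and the last of the 6 was the Eif3j2 copy over Eif3j, with a difference of -2.62. In the other 5 ratios the groups overlapped. Eif4e2 to Eif4e and Eif4e3 to Eif4e differed by -0.05 and -0.09 and Eif5a2 to Eif5a by 0.08 (exact permutation p = 0.8 for each). Eif4ebp2 to Eif4ebp1 and Eif4ebp1 to Eif4e differed by -0.90 and 0.50 (p = 0.4 by the same permutation test), with double mutant mouse 1 near the wild-type values in both.

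**Figure D3:**
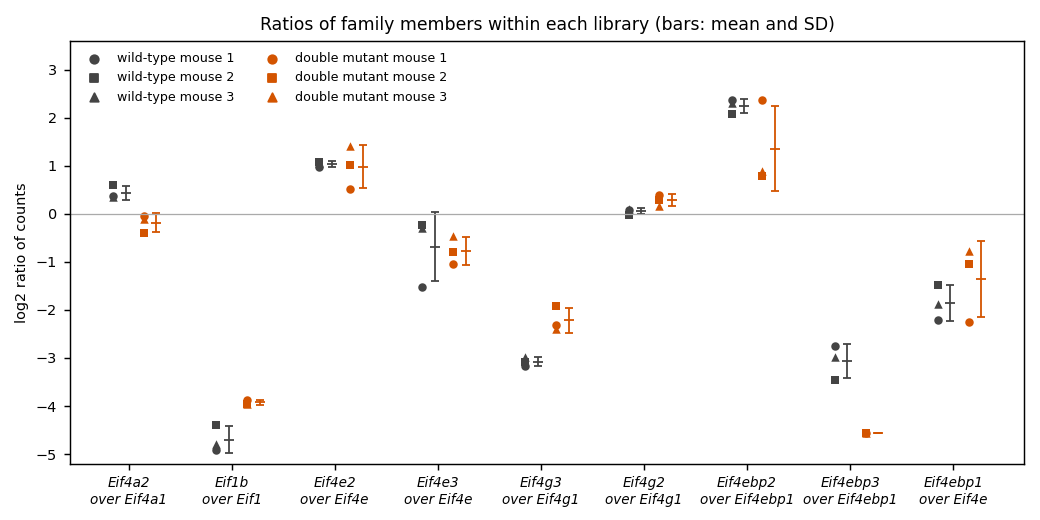
Log2 ratio of counts of related genes (vertical axis) in each mouse for 9 of the 11 pairs, with group means and SD (n = 3). The Eif4a2 to Eif4a1 ratio is above 0 in the 3 wild-type mice and below 0 in the 3 double mutant mice, and double mutant mouse 1 stands with the wild-type mice in both Eif4ebp pairs whose groups overlap.

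In wild-type villi the highest levels per kilobase of annotated exons belonged to Eef1a1 (645 CPM per kb), Eef2 (488), Eif4h (199.7), Eif1 (119), Eif6 (105) and Eif5a (81.9). In double mutant villi the order was Eef1a1 (1199 CPM per kb), Eef2 (516), Eif5a (134), Eif4h (118) and Eef1g (104). Eef1a1 and Eef2 were thus closer to each other in wild-type than in double mutant villi. Lengths count every annotated exon once, so a gene with long exons that are rarely used has a lower value.

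The 4 Argonaute genes that carry Eif2c symbols in this annotation were not called. Their median log2 fold change was -0.30, and none had an unadjusted p under 0.05. Eif2c2, the Argonaute with slicing activity, had 58.6, 83.0 and 62.1 CPM in the wild-type mice against 78.7, 32.8 and 41.4 CPM in the double mutants (log2 -0.41 ± 0.33, adjusted p = 0.366), with double mutant mouse 1 near the top of the wild-type range. Without that mouse it was lower (log2 -0.86, adjusted p = 0.0164). Eif2c4 had 3.55 ± 1.26 and 2.10 ± 0.447 CPM (log2 -0.76 ± 0.34, adjusted p = 0.112), and Eif2c1 and Eif2c3 were at -0.19 and -0.09. When later RefSeq symbols define the family, the Argonautes drop out and methyltransferases that modify eEF1A and eEF2 come in, together with the Eif3j2 copy described above. Of the 60 genes then tested, 39 were higher (19.7% of all tested genes) and 3 lower (17%), with a median of 0.57. The Eif3j2 copy was the third gene called lower. Among the methyltransferases, Mettl13 rose by 1.98 ± 0.31, N6amt2 by 0.99 ± 0.23 and Fam86 by 2.07 ± 0.28 on the log2 scale (adjusted p = 0.000982). Mettl10 had 0.55 ± 0.27 on the log2 scale (adjusted p = 0.138), and Fam119b was removed by the filter on low counts.

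Other genes of translation were fitted in the same test. The lists used here, put together with earlier results of these data known, hold 53 genes, of which 50 were tested: 13 were higher (19.7% of all tested genes), 4 were lower (17%) and 33 did not pass the test, with a median log2 fold change of 0.24. Of 5 genes of termination and recycling, Abce1, which splits ribosomes after termination, rose from 27.0, 20.6 and 17.4 CPM to 62.8, 56.5 and 47.7 CPM (log2 1.36 ± 0.18, adjusted p = 0.000928), and Hbs1l was lower (log2 -0.33 ± 0.11, adjusted p = 0.0493). Of 6 genes for poly(A)-binding proteins and their partners 2 were higher, led by Pabpc1, which bridges the poly(A) tail to eIF4G, from 342 ± 30.1 to 502 ± 29.9 CPM (log2 0.56 ± 0.11, adjusted p = 0.00615). Of 10 mitochondrial factors 3 were higher. Tsfm, the mitochondrial exchange factor, had the largest change of these (log2 1.22 ± 0.20, adjusted p = 0.00239), while Tufm, the mitochondrial counterpart of eEF1A, had 126 ± 16.7 and 158 ± 20.4 CPM (log2 0.32 ± 0.14, adjusted p = 0.101).

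Enzymes that modify eEF2 and eIF5A form another list, in which 3 of 7 were higher (19.7% of all tested genes). Dph1, Dph2 and Dph5, which make the diphthamide residue of eEF2, were higher, led by Dph1 from 0.542, 0.870 and 1.57 CPM to 4.88, 4.27 and 2.80 CPM (log2 2.01 ± 0.43, adjusted p = 0.00767). Dhps and Dohh, which make the hypusine of eIF5A, were at 0.07 ± 0.15 and 0.07 ± 0.14 on the log2 scale and did not pass the test. Of 10 initiation partners 3 were higher (19.7% of all tested genes) and 1 was lower (17%). Dhx29, a helicase for structured leaders, had the largest rise (log2 0.83 ± 0.28, adjusted p = 0.0467), although its groups overlapped, and Mknk1, a kinase of eIF4E, was lower (log2 -0.45 ± 0.15, adjusted p = 0.0403). Pdcd4, an inhibitor of eIF4A, was higher as well (27.5 ± 3.93 and 39.3 ± 6.49 CPM, log2 0.51 ± 0.16, adjusted p = 0.0362). Of 12 genes of the mTORC1 pathway 1 was higher (19.7% of all tested genes), Rragd (log2 0.51 ± 0.17, adjusted p = 0.0437). In this pathway 2 were lower (17%), led by the S6 kinase gene Rps6kb2 (log2 -0.44 ± 0.13, adjusted p = 0.0327). With library size alone, 24 of these genes were higher and none was lower, beside 28% and 10.7% of all tested genes under that scaling, and without wild-type mouse 1 none was lower either (17.1% of all genes tested without it).

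Myc, a transcription factor known to drive genes of ribosomes and translation, had 0.417, 1.90 and 2.53 CPM in the wild-type mice against 18.6, 15.5 and 21.0 CPM in the double mutants (log2 3.53 ± 0.52, adjusted p = 0.00234). It binds the E-box CACGTG, so this sequence, which reads the same on both strands, was looked for in the RefSeq promoter windows, 250 bases before to 50 after each start. It was found in 12 of the 46 genes with a window (26.1%) and in 8.09% of all 27025 genes with one, tested here or not, so these shares are not of like sets. Among the genes that rose, 6 of 28 had it (21.4%), and among the others 6 of 18 (33.3%), which are shares of letters only. The 30-base stretches around it are shown for both kinds of gene, with the E-box in capitals (GRCm38.p6, 5' to 3' on the gene's strand). Eif3f (chr7:108934335-108934364, plus strand), Eif3k (chr7:28981915-28981944, minus strand) and Eif4a1 (chr11:69672595-69672624, minus strand) rose. Eif4g1 (chr16:20672661-20672690, plus strand) did not pass the test and Eif4h (chr5:134639488-134639517, minus strand) fell.
Eif3f: caagatatgattCACGTGgtataaatttag
Eif3k: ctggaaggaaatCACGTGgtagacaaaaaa
Eif4a1: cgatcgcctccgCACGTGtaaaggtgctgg
Eif4g1: ggcagtgggtgtCACGTGatggggcggagc
Eif4h: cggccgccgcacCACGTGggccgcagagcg
A match says only that these letters lie in the window, and no binding was measured in these villi.

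The position of the family relative to other genes depended little on scaling, but the position of 0 did. With library size alone, the log2 fold changes of the tested genes moved up by a median of 0.193. The genes higher among all those called went from 53.7 to 72.4%, and the family median went from 0.52 to 0.71. The family median exceeded the all-gene median by 0.50 under both scalings, and 40 genes were then higher, where 28% of all tested genes were, and 1, Eif4h, was lower, where 10.7% were.

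**Figure D4:**
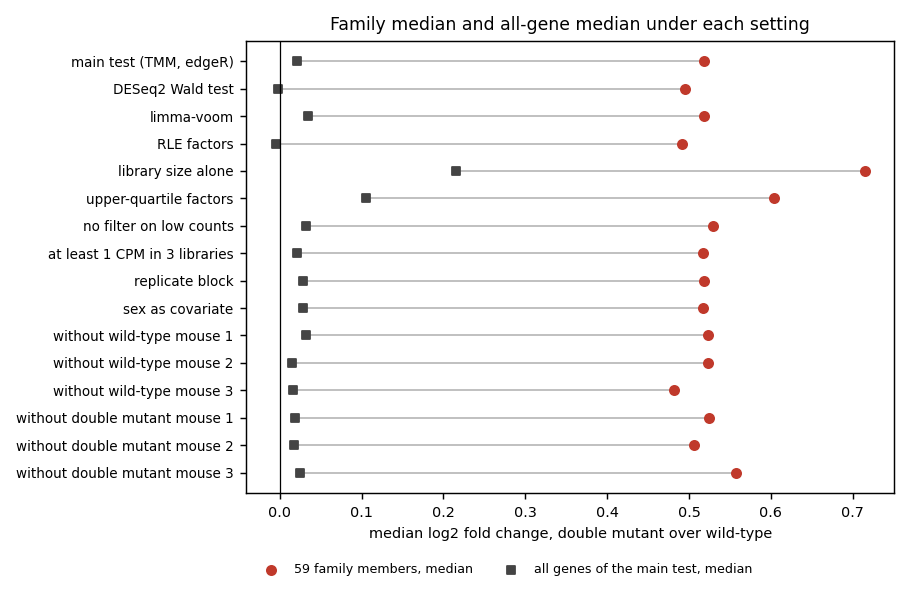
Median log2 fold change (horizontal axis) of the 59 genes (circles) and of all genes (squares) under each way of processing the counts. The squares move furthest to the right with library size alone, and the circle moves with them.

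Copies of these genes elsewhere in the genome limit some of the counts. Of the 59 genes, 24 had at least 1 other place in mm9 that matched their longest transcript over 150 bases or more at 95% identity or more, and Eef1a1 and Eif1 had 16 such places each. Annotated copies of Eef1a1 with rows of their own took 0.985 to 1.68% of the counts of Eef1a1 and copies together. Those of Eif1 took at most 0.571% and that of Eef2 at most 0.302%. Places without a row of their own are not in these shares.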

How the data were processed

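Villus epithelium of 3 wild-type and 3 double mutant mice was sequenced after poly(A) selection. Per the labels and the study's methods, HISAT2 was used by the authors for alignment to mm9 and featureCounts for gene counts, which were deposited raw, 1 column per mouse, with no scaling or pooling. Strand and multi-mapping settings are not given in the sources used here. The table has 20409 rows, of which 336, outside the annotation, took 0.214 to 0.270% of the counts. Symbols and positions came from the GENCODE annotation of mm9, which matched 20032 of 20073 Ensembl identifiers.

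From the counts onward, genes were filtered with filterByExpr, scaled with TMM and tested with edgeR 4.0.16 (R 4.3.3) by glmQLFit (robust) and glmQLFTest, with Benjamini-Hochberg adjustment over 13346 genes and a threshold of 0.05. P-values measure the spread between these mice. The standard error of a log2 fold change is its size over the root of its F statistic. Values after ± are SD beside CPM, shares and ratios and SE beside log2 fold changes. Ratios used counts plus 0.5 and an exact two-sided permutation test. Copies were found with minimap2 2.31-r1302. The test was checked first on simulated counts, in which few genes changed and none by a log2 fold change under 1 in size. Smaller changes were not covered by that check. Groups came from the labels. Every gene of the family is accounted for. Full values go to the largest rise and fall of each role group, its highest level per kb, genes called lower and both genes of each ratio; of the other lists, to the largest called rise and fall, Pdcd4, Pabpc1 and Tufm. Further genes were given values because a result turned on them. The family and all lists were chosen with earlier results of these data known. The Argonaute group was added once the annotation was seen.

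Alternatives were DESeq2 1.42.0, limma-voom (limma 3.58.1), RLE and upper-quartile factors, library size alone, other filters, a replicate block, sex as covariate, fold thresholds, another pseudocount and each mouse left out. A family by later symbols was added after seeing the data.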

Additional observations from a re-analysis of the deposited data

How the results depend on the processing

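DESeq2, limma-voom and RLE factors gave 36 genes higher and 2 lower, as in the main comparison, and so did a filter of at least 1 CPM in 3 libraries. Of all genes, 12.9, 20.3, 18.9 and 21% were higher in that order, and 12.4, 17, 18.3 and 18.1% were lower. For DESeq2 the share is of all 20409 rows. The count of lower genes was 1 with library size alone, upper-quartile factors, no filter, the replicate block or sex as covariate. Eif6 lost its call in each (adjusted p = 0.284, 0.118, 0.0660, 0.107 and 0.0568, in that order). Of all genes, 10.7, 13.7, 10.6, 13.1 and 17.2% were lower under these settings. With a log2 fold change of at least 1 the counts were 6 and 0 (10.9 and 6.23% of all tested genes), and with at least 2 they were 1 and 0 (3.04 and 2.26%). Leaving out each mouse in turn gave 30 to 36 higher, 1 to 2 lower and a median of 0.48 to 0.56, while 13.2 to 20.2% of all genes tested were higher and 11.9 to 17.1% lower. Library size alone gave a median of 0.71, and 24 higher and 0 lower among the other translation genes (28 and 10.7% of all tested genes). Without wild-type mouse 1 those other translation genes had 0 lower (17.1% of all genes tested). With later symbols 39 were higher and 3 lower (19.7 and 17% of all tested genes).

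With 1 count added to ratios in place of 0.5, none of the 11 changed sign. Signs reversed only for genes that did not pass the test. With library size alone, Eif2b2 was at 0.0086, Eif2c1 at 0.0043, Eif2c3 at 0.10, Eif4a2 at 0.12, Eif4ebp2 at 0.18, Eif4enif1 at 0.12 and Eif4g1 at 0.12 on the log2 scale. With upper-quartile factors, Eif4a2 was at 0.011, Eif4ebp2 at 0.070, Eif4enif1 at 0.0053 and Eif4g1 at 0.0081. Leaving out each mouse in turn gave Eif4e3 -0.054 to 0.352, Eif2c3 -0.202 to 0.044 and Eif4ebp2 -0.234 to 0.102, with Eif4e3 below 0 without wild-type mouse 1, Eif2c3 above 0 without wild-type mouse 2, and Eif4ebp2 above 0 without wild-type mouse 2 or double mutant mouse 2 or 3. The cause was not tested.

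The labels give both groups the same replicate numbers. Deviations from the group means correlated between same-numbered mice at r = 0.0224, -0.109 and 0.0123 over genes. Not every mouse correlated best with its own number, but with 3 mice per group this cannot decide whether the mice were matched. The study's methods state that replicates were matched by age and sex between the groups, and the labels do not say which mice were matched. With the replicate block, 32 genes were higher and 1 lower, beside 15.6% and 13.1% of all tested genes. Eif1b, Eif3c, Eif4a3, Eif5 and Eif6 lost their calls (adjusted p = 0.0747, 0.0508, 0.0834, 0.0721 and 0.107). Depth limits Eif5a2, Eif4ebp3 and Eif2b3 most. Groups of 3 are too small for a test for outlying samples. Over the tested genes, log2 CPM of wild-type mouse 1 correlated with wild-type mice 2 and 3 at r = 0.958 and 0.957. Wild-type mice 2 and 3 correlated at 0.984, and the double mutant mice with each other at 0.980 to 0.982.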
